A study of Mus musculus with 6 samples.

Results

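Gm26191, Gm24105, Rmrp and Rpph1 are 4 short non-coding RNA genes that were followed in mouse embryonic fibroblasts (MEFs), the connective tissue cells that grow out of a minced embryo. They were taken by name from the minus-strand rows of the count tables, 4 genes of 38483 listed and of 19269 on the minus strand. Gm26191 and Gm24105 were selected on their counts, as the 2 most counted of the minus-strand genes, the only ones with a count. Rmrp and Rpph1 were named beside them, so a high level is a description and not a finding. The study asked how the transcriptome of MEFs from a mouse model of Cornelia de Lange syndrome differs from that of WT littermates. Ribosomal RNA was depleted with Ribo-Zero, the rest was sequenced with the TruSeq RNA kit, and the reads were counted per gene. The 2 groups were WT, 3 cultures without the mutation, and Nipbl+/-, 3 cultures heterozygous for a knockout of Nipbl. All cultures were of the CD1 strain and at passage 3. Per the study's methods, MEFs were made from mid-gestation embryos of 1 pregnant mouse, after limbs, brain and internal organs were taken away, and the replicates were biological. The labels' extraction text speaks of ES cells, while the other labels and the methods give MEFs, which is the name used here. Neither source says which embryos gave which culture, so p-values measure the spread between these cultures.

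7SL RNA is the scaffold of the signal recognition particle (SRP), which binds the signal peptide of a nascent secreted or membrane protein and brings the ribosome to the endoplasmic reticulum. Rpph1 is the catalytic RNA of RNase P, the enzyme that trims the 5′ end of precursor tRNAs. Rmrp is the RNA of RNase MRP, which shares most of its proteins with RNase P, cuts precursor ribosomal RNA, and is mutated in cartilage-hair hypoplasia. All are made by RNA polymerase III and fold into long base-paired stretches.

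The genes lie on the minus strand of mm10 on separate chromosomes, and GENCODE M21 annotates each as a single short RNA gene. Gm26191 (ENSMUSG00000092773) lies at chr12:69361185-69361481, is 297 bases long, and bears the symbol Rn7s2 in GENCODE and RefSeq. Gm24105 (ENSMUSG00000092674) lies at chr5:149247954-149248244 and is 291 bases long. Rmrp (ENSMUSG00000088088) lies at chr4:43492788-43493058 with 271 bases, and Rpph1 (ENSMUSG00000092837) at chr14:50807449-50807767 with 319 bases. All 4 are rich in G and C, at 62.6% in Gm26191, 59.8% in Gm24105, 64.2% in Rmrp and 67.1% in Rpph1. The nearest protein-coding gene to Gm26191 was Nemf, 4020 bases away, and to Gm24105 it was Alox5ap, 16523 bases away. Rmrp and Rpph1 overlap protein-coding genes in GENCODE M21: 124 of the 271 bases of Rmrp (45.8%) lie in exons of Ccdc107 on the opposite strand, and 233 of the 319 bases of Rpph1 (73.0%) lie in exons of Ccnb1ip1 on the same strand. Ccnb1ip1 itself received a summed count of 39 over the 6 cultures, in a deposited interval of 6480 bases that is shorter than the GENCODE M21 gene. Ccdc107 lies on the plus strand, where every gene is listed at 0, so its 0 says nothing about reads in the overlap. The kit does not mark strand, which matters for Rmrp and Ccdc107, and Ccnb1ip1 shares the strand of Rpph1. Reads from these overlaps thus cannot be told apart by gene, and the counts of Rmrp and Rpph1 carry that limit.

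The 7SL genes were aligned with each other, from GENCODE M21 transcripts in mm10, because their likeness bears on how reads are divided between them. Over 298 aligned positions 273 were identical (91.6%), with 17 mismatches and 8 positions where one gene has a gap. The longest stretch shared without a difference was 58 bases. Of the 248 windows of 50 bases in Gm26191, 9 (3.6%) occur unchanged in Gm24105.

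Rmrp and Rpph1 are shown to compare related catalytic RNAs, Rmrp in full and Rpph1 over its first 300 bases, 5′ to 3′. The letters are from GENCODE M21 with T for U, and capitals mark a run of the greatest length common to both.
Rmrp: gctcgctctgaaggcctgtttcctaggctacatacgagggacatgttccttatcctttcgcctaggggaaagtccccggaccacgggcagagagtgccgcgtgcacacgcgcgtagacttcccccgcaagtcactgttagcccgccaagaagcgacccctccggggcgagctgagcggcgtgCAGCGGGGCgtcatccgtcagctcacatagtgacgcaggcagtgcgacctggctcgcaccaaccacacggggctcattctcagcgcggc
Rpph1: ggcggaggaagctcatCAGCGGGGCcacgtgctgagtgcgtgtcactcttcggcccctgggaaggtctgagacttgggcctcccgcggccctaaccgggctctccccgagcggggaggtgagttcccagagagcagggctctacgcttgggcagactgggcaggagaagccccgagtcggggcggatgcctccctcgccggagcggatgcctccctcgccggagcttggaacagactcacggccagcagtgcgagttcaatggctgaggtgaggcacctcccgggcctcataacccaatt
The run in capitals is 9 bases long, at bases 183 to 191 of Rmrp and 17 to 25 of Rpph1 counted from the 5′ end. It is not the only run of that length, as gcagtgcga also occurs in both and stays in lower case. Aligned end to end, the 2 RNAs were identical at 53.1% of 294 positions, and no window of 50 bases is common to both.

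Beyond the pair, the identity of Gm26191 with another 7SL gene limits its count. All 248 windows of Gm26191 occur in other annotated genes, above all in Rn7s1 (listed as Gm22405), which matches Gm26191 over all 297 bases and lies on the plus strand. In Gm24105, 12 of 242 windows (5.0%) occur in another gene, and in Rmrp and Rpph1 none of 222 and 270 windows do. Every plus-strand gene of the files, 19214 in all, had a count of 0 in all 6 cultures, Rn7s1 included, so the count of Gm26191 may hold reads of both copies and is uncertain as a count of 1 gene. How reads that match several places were counted is not given in the sources used here. Of 5 annotated genes with at least 70% identity to Gm26191 over at least 80% of its length, 3 lie on the minus strand, and the remaining one of these, Gm22876 (84.1% identical), had no count. Gm24514, which holds stretches of the 7SL sequence, had counts of 5914, 6309 and 4563 in WT and 5536, 4943 and 5253 in Nipbl+/- cultures. Gm23153, another such gene, had 2731 counts in all.

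Total counts, which hold minus-strand genes only, lay between 20307454 and 25990783 per culture. Of these genes 9061 passed the filter on low counts, the 4 RNAs among them. Nipbl, which loads cohesin onto chromatin, served as the check of the labels, with 128, 145 and 135 CPM (counts scaled to a common library size, with TMM factors) in WT against 100.7, 101 and 100.3 CPM in Nipbl+/- cultures. Its log2 fold change of -0.43 (SE 0.06, adjusted p = 0.0213, edgeR) passed the threshold of 0.05. Of the 11 fibroblast markers, 10 lie on the plus strand and are listed at 0. Within that list the cell type could thus be checked only with Fn1 (fibronectin), the minus-strand gene with the highest count after the 7SL pair. Of 13 macrophage markers 8 were measured (Cd68, Lyz2, C1qa, C1qb, C1qc, Fcgr3, Cd14 and Ptprc). None of the 8 passed the threshold, all 8 were higher in Nipbl+/- at an unadjusted p under 0.05 (edgeR), where 8.98% of all tested genes were, and in Cd68 and Fcgr3 the genotypes overlapped. Their sum was 54.9 to 73.8 CPM in WT and 93.3 to 181 CPM in Nipbl+/- cultures. Csf1r, Emr1, Mrc1, Itgam and Tyrobp lie on the plus strand at 0. Epithelial markers, with Epcam, Cdh1 and Krt18 on the plus strand at 0, summed to 0.352 to 0.523 CPM in WT and 1.04 to 2.61 CPM in Nipbl+/- cultures. Krt5 and Krt14 were below the filter, so of this list only Krt8 was tested, at a low level. It had 0.378 ± 0.061 CPM (SD, n = 3) in WT and 1.08 ± 0.80 in Nipbl+/- (adjusted p = 0.227, edgeR), which does not establish a cell type. Whether cells with any of these markers took part in a difference below was not tested.

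Together the 4 RNAs took between 13.5% and 16.6% of the counts of each culture, most of it in Gm26191. As no plus-strand gene has a count, these shares and the ranks below cover minus-strand genes only. The library size behind the RPKM below was 1.032 to 1.0409 times that same total. Gm26191 made up 12.2%, 12.4% and 10.1% of the total count in the 3 WT cultures, in the order of their labels, and 11.2%, 10.5% and 10.3% in the 3 Nipbl+/- cultures. For Gm24105 the shares were 2.86%, 2.96% and 2.43% in WT and 2.68%, 2.62% and 2.44% in Nipbl+/- cultures. Both 7SL genes were thus high in WT 1 and WT 2 and low in WT 3, with the Nipbl+/- cultures in the range between. Rpph1 made up 0.762%, 0.721% and 0.547% in WT and 0.677%, 0.570% and 0.579% in Nipbl+/- cultures. Rmrp made up 0.456%, 0.521% and 0.430% in WT and 0.371%, 0.403% and 0.422% in Nipbl+/- cultures, and only for Rmrp did the genotypes not overlap. Counting error was small beside these differences, as the widest Wilson 95% interval of any share reached 0.0152 percentage points to either side, an interval that covers counting error only, since PCR copies are not independent molecules.

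The order of the genes was the same in every culture at the top and varied further down. Gm26191 ranked first and Gm24105 second in each of the 6 cultures. Over all cultures Gm24105, the last gene that the choice took in by rank, held 2.67% of the counts, and Fn1, the first left out, held 1.67%. Rn7sk, the RNA that holds the elongation factor P-TEFb inactive, came next with 1.45%. Rpph1 ranked 11 and Rmrp 19 by summed count.

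Levels of different genes can be compared only per length, and for this the deposited RPKM (reads divided by gene length and by library size) was used. The mean RPKM of Gm26191 was 375996 ± 40607 (SD, n = 3) in WT and 347858 ± 16030 in Nipbl+/- cultures. Gm24105 followed with 91221 ± 9017 and 85830 ± 4355 RPKM, and Rn7sk came next with 41355 ± 842 and 43402 ± 1985 RPKM. After it came Rpph1 with 20466 ± 3415 in WT and 18470 ± 1830 RPKM in Nipbl+/- cultures. Gm26315, whose product was not looked up here, followed with 15758 ± 738 and 16780 ± 608 RPKM, and then Rmrp with 16699 ± 1605 and 14244 ± 904 RPKM. The steps from Gm26191 to Gm24105, to Rn7sk and to Rpph1 were larger than the spread over cultures. The ranges of Rpph1, Gm26315 and Rmrp over cultures overlapped: Gm26315 ranged from 14921 to 17349 RPKM, Rpph1 from 16603 to 23083 RPKM and Rmrp from 13270 to 18474 RPKM. Within every single culture, however, Rpph1 lay above both Gm26315 and Rmrp. The order of Gm26315 and Rmrp differed between cultures.

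**Figure D1:**
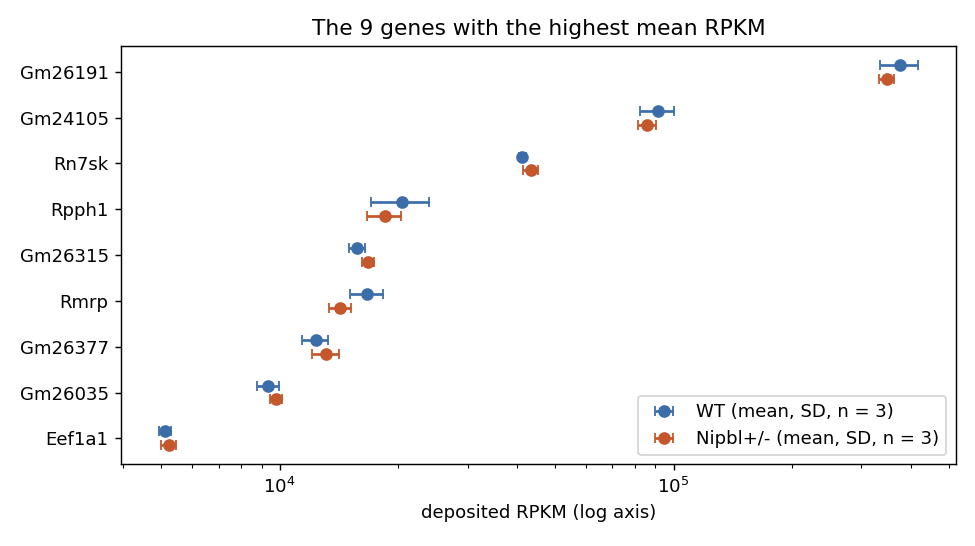
Deposited RPKM on a log axis for the 9 minus-strand genes with the highest mean over 6 cultures. Each is shown as the mean (point) and SD (bar) of 3 WT (blue) and 3 Nipbl+/- (orange) cultures. Gm26191 stands at 375996 RPKM in WT, Gm24105 and Rn7sk follow apart from the rest, and Rpph1, Gm26315 and Rmrp come next.

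Between genotypes the 4 RNAs were compared in TMM-normalized CPM. None passed the threshold in the fit across all genes, where 1.95% of the tested genes did (1.04% higher and 0.916% lower in Nipbl+/-). Rmrp was the only one of them whose WT and Nipbl+/- cultures did not overlap, as in 22.8% of all tested genes in either direction, and all 4 had a log2 fold change below 0, as had 51.6% of all tested genes. In bulk samples fewer cells of a type and less RNA per cell cannot be told apart.

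Gm26191 had 125612, 127104 and 99929.6 CPM in WT and 112058, 104307 and 99904.1 CPM in Nipbl+/- cultures. WT 1 and WT 2 lay above every Nipbl+/- culture, while WT 3 lay beside the lowest of them. The log2 fold change, Nipbl+/- minus WT, was -0.16 (SE 0.09, 95% interval -0.37 to 0.06, adjusted p = 0.440, edgeR). Without WT 3 it was -0.26 (adjusted p = 0.0915, edgeR) and without WT 2 it was -0.10 (adjusted p = 0.690, edgeR).

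Gm24105 had 29517, 30232 and 24065 CPM in WT and 26803, 26030 and 23636 CPM in Nipbl+/- cultures, the same pattern of cultures at a lower level. The log2 fold change was -0.13 (SE 0.09, 95% interval -0.34 to 0.07, adjusted p = 0.503, edgeR). It was -0.23 without WT 3 (adjusted p = 0.126, edgeR) and -0.07 without WT 2 (adjusted p = 0.758, edgeR).

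Rpph1 had 7859.6, 7364 and 5412 CPM in WT and 6769, 5657 and 5615 CPM in Nipbl+/- cultures. The highest and the lowest of the 6 values were both WT, so the genotypes overlapped. The log2 fold change was -0.19 (SE 0.13, 95% interval -0.50 to 0.11, adjusted p = 0.513, edgeR), with -0.34 without WT 3 (adjusted p = 0.108, edgeR) and -0.09 without WT 1 (adjusted p = 0.846, edgeR).

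Rmrp had 4706, 5323 and 4251 CPM in WT and 3708, 4004 and 4094 CPM in Nipbl+/- cultures. Every Nipbl+/- culture lay below every WT culture, a pattern that 10.8% of all tested genes showed, and the gap between the lowest WT and the highest Nipbl+/- culture was small beside the range within WT. The log2 fold change was -0.27 (SE 0.08, 95% interval -0.46 to -0.09), with an unadjusted p of 0.00843 and an adjusted p of 0.129 (quasi-likelihood test of edgeR, Benjamini-Hochberg). At an unadjusted p under 0.05, 7.95% of all tested genes were lower in Nipbl+/-. With DESeq2 the log2 fold change was the same and the adjusted p was 0.0298, so the call for Rmrp rests on the tool. In RPKM the groups were also apart, with 16269, 18474 and 15352 in WT and 13270, 14406 and 15057 in Nipbl+/- cultures. Macrophage markers, and epithelial markers of which only Krt8 was tested, were higher in every Nipbl+/- culture than in any WT culture when summed. Any part of such cells in the lower Rmrp values was not tested.

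**Figure D2:**
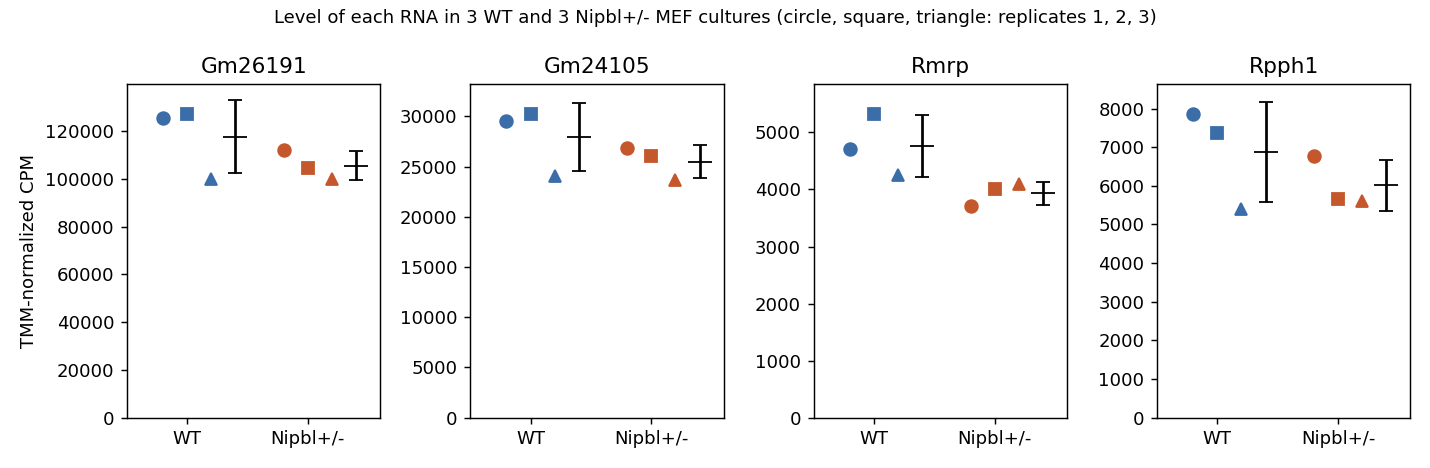
TMM-normalized CPM (vertical axes from 0) of each RNA in 3 WT (blue) and 3 Nipbl+/- (orange) cultures, with replicates 1, 2 and 3 as circle, square and triangle and the mean and SD in black. WT 3 lies low for Gm26191, Gm24105 and Rpph1, and Rmrp alone has no overlap, with WT from 4251 and Nipbl+/- up to 4094 CPM.

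**Figure D3:**
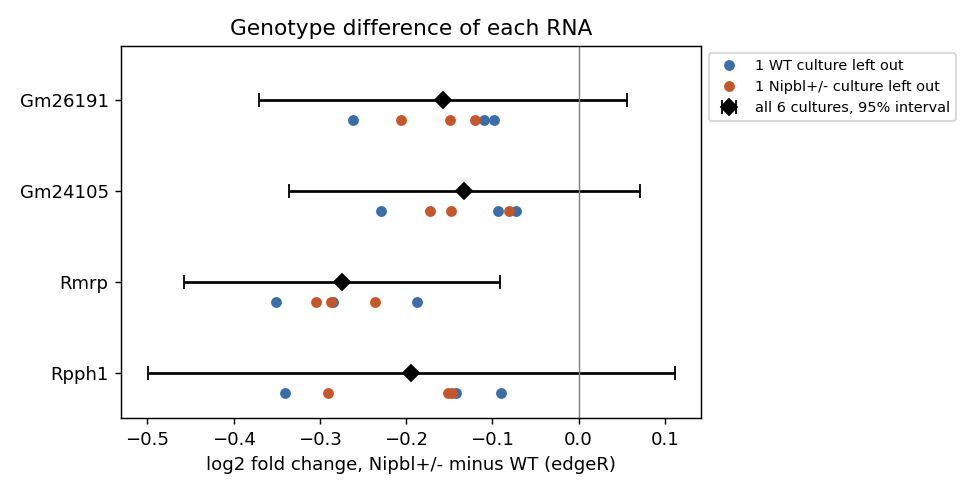
Log2 fold change of each RNA, Nipbl+/- minus WT, from edgeR with all 6 cultures (black, with 95% interval) and with 1 culture left out (blue for WT, orange for Nipbl+/-). The interval of Rmrp, not adjusted for the number of genes tested, ends at -0.09, and those of Gm26191, Gm24105 and Rpph1 cross 0. No omission of a culture brought a value to 0 or above. None of the RNAs passed the threshold, and 16.9% of all tested genes had an unadjusted p under 0.05 (edgeR).

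Since reads may be split between the 7SL genes, their sum was also compared. The sum was 155128, 157336 and 123995 CPM in WT and 138862, 130336 and 123540 CPM in Nipbl+/- cultures. On the log2 scale its mean was 17.14 ± 0.19 (SD, n = 3) in WT and 17.00 ± 0.08 in Nipbl+/-, a difference of -0.15 (two-sided exact permutation test, p = 0.3, adjusted p = 0.6 over 4 such tests). The difference was -0.26 without WT 3, -0.10 without WT 1 and -0.09 without WT 2. With 3 against 3 cultures this test cannot give a p below 0.1. All 4 RNAs together took 16.3%, 16.6% and 13.5% of the total count in WT and 14.9%, 14.1% and 13.7% in Nipbl+/- cultures. Their mean share was 15.5% ± 1.71 (SD, n = 3) in WT and 14.3% ± 0.618 in Nipbl+/-, with an exact permutation p of 0.4 (adjusted p = 0.6).

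Within the 7SL pair the division of counts was nearly constant. Gm26191 held 80.97%, 80.79% and 80.59% of the pair's counts in WT and 80.70%, 80.03% and 80.87% in Nipbl+/- cultures. The means were 80.8% ± 0.190 (SD, n = 3) and 80.5% ± 0.443, which differed by -0.25 percentage points (exact permutation test, p = 0.6, adjusted p = 0.6). That difference was -0.00050 points without Nipbl+/- replicate 2 and -0.42 points without Nipbl+/- replicate 3. As a ratio of counts, Gm26191 over Gm24105 ran from 4.01 in Nipbl+/- replicate 2 to 4.26 in WT replicate 1. That ratio thus varied less between cultures than the level of either gene.

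The ratio of Rmrp to Rpph1 varied more. The Rmrp count divided by the Rpph1 count was 0.599, 0.723 and 0.786 in WT and 0.548, 0.708 and 0.729 in Nipbl+/- cultures, so Rpph1 had more counts than Rmrp in all 6. On the log2 scale the ratio was -0.52 ± 0.20 (SD, n = 3) in WT and -0.61 ± 0.23 in Nipbl+/-, with an exact permutation p of 0.6 (adjusted p = 0.6). The difference of -0.09 became 0.04 without Nipbl+/- replicate 1, which had the lowest ratio.

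**Figure D4:**
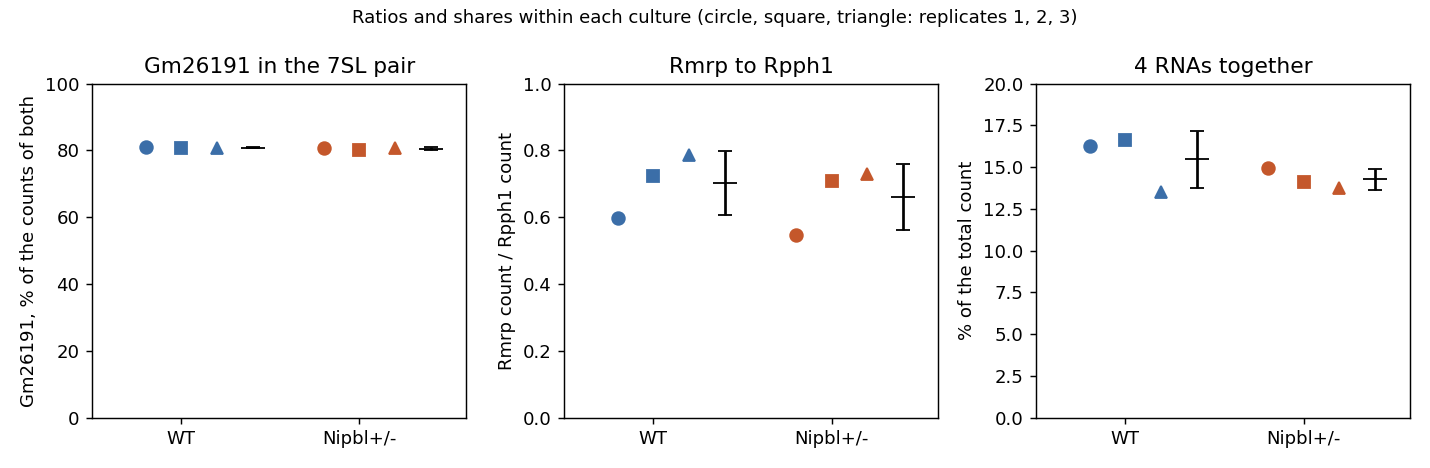
Gm26191 as a percent of the counts of the 7SL pair, the Rmrp count over the Rpph1 count, and all 4 RNAs as a percent of the total count, in 3 WT (blue) and 3 Nipbl+/- (orange) cultures with the mean and SD in black. The pair's division stays between 80.03% and 80.97%, which as a count ratio is 4.01 to 4.26. The Rmrp to Rpph1 count ratio runs from 0.548 to 0.786. The total count holds minus-strand genes only.

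The spread between cultures was described by the root mean square (RMS) deviation of log2 CPM from the mean of the 6 cultures. As both genotypes enter that mean, the spread includes any difference between them. It was 0.144 for Gm26191, 0.134 for Gm24105, 0.17 for Rmrp and 0.209 for Rpph1, against a median of 0.0774 over the 100 tested genes with an average log2 CPM above 10. Of these genes, 80 varied less than Gm26191, 75 less than Gm24105, 88 less than Rmrp and 91 less than Rpph1. Rn7sk, also a polymerase III transcript, had an RMS spread of 0.0632.

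The genes whose pattern over the 6 cultures came nearest to each RNA were found by the RMS difference of centred log2 CPM, over 8342 other genes. The nearest gene to Gm26191 was Gm24105, at 0.0281, and the reverse held as well. For both the next were Gpx7, an endoplasmic reticulum peroxidase (0.0308 from Gm26191 and 0.032 from Gm24105), and Rpl13a, a ribosomal protein gene (0.0358 and 0.0366). Rmrp lay nearest to Ripk3, a kinase of necroptosis (0.0354), Stom, a membrane scaffold protein (0.0463), and Timm9, a mitochondrial import chaperone (0.0474). Rpph1 lay nearest to Gm6023 (0.0381), Minos1, a subunit of the mitochondrial cristae complex (0.0511), and Nkx2-1, a lung and thyroid transcription factor (0.0608), with Gm26191 at place 8 (0.0771). The RNase RNAs were farther from each other, at 0.18. These distances rest on 6 cultures in which the points share a library, and they are a description.

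Other short genes were measured for comparison. The 3691 minus-strand genes of at most 400 bases other than the 4 RNAs, of which 1484 had a count, took 4.73%, 4.90% and 4.33% of the total in WT and 4.78%, 4.72% and 4.63% in Nipbl+/- cultures. WT 3 was the lowest for these genes too. Rn7sk had 14923, 14524 and 13719.6 CPM in WT and 15176, 15151 and 13654 CPM in Nipbl+/- cultures, with a log2 fold change of 0.03 (SE 0.06, adjusted p = 0.853, edgeR).

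The proteins that work with 7SL RNA could be followed only in part. Of 10 SRP protein and receptor genes, 7 lie on the plus strand and are listed at 0, and 0 of the 3 tested passed the threshold (edgeR), while 2 were lower at an unadjusted p under 0.05, as were 7.95% of all tested genes. Srprb, the membrane-anchored subunit of the SRP receptor, had 116, 115 and 119.6 CPM in WT and 105, 102 and 101 CPM in Nipbl+/- cultures. All Nipbl+/- cultures lay below all WT cultures, as in 10.8% of all tested genes, and the log2 fold change was -0.19 (SE 0.05, adjusted p = 0.0935, edgeR). Srp14, which binds the Alu end of 7SL RNA, had 161 ± 10.99 CPM (SD, n = 3) in WT and 145 ± 5.36 in Nipbl+/-, with a log2 fold change of -0.15 (adjusted p = 0.279, edgeR). Srp68 had 68.4 ± 0.458 and 69.997 ± 0.435 CPM, a log2 fold change of 0.03 (adjusted p = 0.728, edgeR). Its cultures did not overlap either, with all Nipbl+/- above all WT, as in 12.0% of all tested genes. The median of the 3 was -0.15, beside -0.0057 over all tested genes.

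Downstream of SRP, 10 of 16 translocon and signal peptidase genes were tested and 6 are listed at 0. None passed the threshold (edgeR), 2 of 10 were lower at an unadjusted p under 0.05, beside 7.95% of all tested genes, and 0 were higher, beside 8.98%. The median log2 fold change was -0.04. The lowest were Spcs3, a signal peptidase subunit, at -0.20 (adjusted p = 0.276, edgeR), and Sec61a2, a channel subunit, at -0.11 (adjusted p = 0.425, edgeR). The highest were Sec11a, a catalytic subunit of signal peptidase, and Spcs2, both at 0.01. Ssr3, of the translocon-associated protein complex, had a log2 fold change of -0.10 with all Nipbl+/- cultures below all WT cultures, as in 10.8% of all tested genes (adjusted p = 0.267, edgeR).

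The RNase P and RNase MRP proteins showed no call either. Of 11 genes 6 were tested, 5 are listed at 0, and 0 of 6 had an unadjusted p under 0.05 (edgeR). Pop4 was lowest at -0.29 but with an SE of 0.48, since it had 29.9 ± 15.1 CPM (SD, n = 3) in WT and 24.5 ± 15 in Nipbl+/-. Rpp40 was at -0.07, Rpp21 at 0.02 and Rpp38 at 0.07. The median log2 fold change was -0.0046.

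Among 31 genes of RNA polymerase III transcription 17 were tested and 14 are listed at 0. None passed the threshold (edgeR), 2 of 17 were higher at an unadjusted p under 0.05, beside 8.98% of all tested genes, and 0 were lower. The log2 fold change was above 0 in 13 of 17, and in 48.4% of all tested genes. The highest were Polr3g, an alternative polymerase III subunit, at 0.25 (adjusted p = 0.287, edgeR), and Pou2f1, the octamer-binding factor, at 0.20 (adjusted p = 0.287, edgeR). The lowest were Snapc4, of the complex that binds the proximal sequence element, at -0.09, and the subunit gene Polr3d at -0.05. In Polr3g and Bdp1 (0.12) all Nipbl+/- cultures lay above all WT cultures, as in 12.0% of all tested genes. The median was 0.06, and any link between these genes and the levels of the 4 RNAs was not tested.

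Of 27 other short structured RNA genes 8 were tested, 12 are listed at 0, 2 were below the filter and 5 names are not in the files. Among these 5, Rn7s2 is Gm26191 itself and Rn7s1 is listed as Gm22405, at 0. None had an unadjusted p under 0.05 (edgeR), and the median log2 fold change was -0.04. Rnu11, a minor spliceosome RNA, was highest at 0.45 (SE 0.38) and Terc, the telomerase RNA, next at 0.30 (SE 0.27). Rnu73b was lowest at -0.35 (SE 0.32), and Rny1, a Y RNA, next at -0.29 (SE 0.25). Rny1 had 29.99, 52.5 and 24.1 CPM in WT and 28.5, 27.6 and 31.2 CPM in Nipbl+/- cultures, so its WT mean rests on WT 2.

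**Figure D5:**
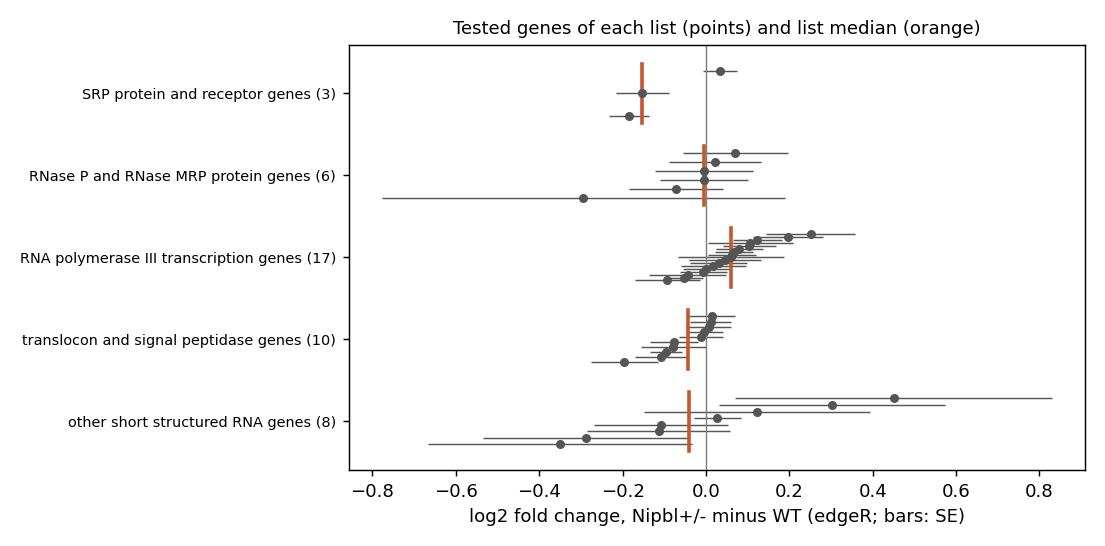
Log2 fold change, Nipbl+/- minus WT, of each tested gene (points, with SE as bars) in 5 gene lists, with the number tested in parentheses and the list median as an orange line. The SRP list has its median at -0.15, the polymerase III list at 0.06, and no point passed the threshold.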

How the data were processed

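RNA was sequenced from 6 MEF cultures, 3 of each genotype. Reads were aligned by the authors to mm10 and Ensembl gene models with TopHat 2.0.10, and raw counts per gene were deposited for each culture. The deposited RPKM is that count scaled by gene length and by a library size 1.032 to 1.0409 times the total count. The counting tool is not given in the sources used here, and the kit does not mark strand. Counts of genes with filterByExpr (minimum count 10) were TMM-normalized and tested in edgeR 4.0.16 (R 4.3.3, quasi-likelihood, no covariates, Benjamini-Hochberg over 9061 genes, threshold 0.05). For 4 summaries within cultures, groups were compared by exact two-sided permutation tests (scipy 1.17.1). CPM values carry TMM factors, and log2 CPM for likeness used a prior count of 2. In simulated data the fit was tested with 200 genes changed 2-fold. Sequences came from GENCODE M21, whose build GRCm38 is mm10, and were aligned with Biopython 1.88. Alternatives were DESeq2 1.42.0, other edgeR tests, scalings and filters, a replicate block, each culture left out, and limma 3.58.1 on log2(RPKM + 1) and log2(RPKM + 0.1).

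The members and lists were chosen with earlier results of these data known. Genes named are Nipbl, the 4 RNAs, the 5 most counted genes, in each list the genes called or else the highest and lowest 2, the 3 genes nearest each RNA in pattern, genes beside them, and marker lists. One of the most counted genes and the letters of the 7SL sequences are not reported here. Gm26315, Ssr3, Bdp1, Gm24514 and Gm23153 were named after their values were seen. Marker lists not given in the report were muscle, with a summed 239.6 to 331 CPM in WT and 295.5 to 350 in Nipbl+/-, endothelial (12.6 to 16.6 and 11.4 to 16.6), neural (0.264 to 0.349 and 0.246 to 0.385) and erythroid, at 0 in every culture.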

Additional observations from a re-analysis of the deposited data

How the results depend on the processing

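The log2 fold changes of Gm26191, Gm24105, Rmrp and Rpph1 stayed below 0 under all 18 alternatives, and only 1 of them moved a call: DESeq2 gave Rmrp -0.27 with an adjusted p of 0.0298. With 1 culture left out, Gm26191 ran from -0.26 to -0.10, Gm24105 from -0.23 to -0.07, Rmrp from -0.35 to -0.19 and Rpph1 from -0.34 to -0.09. The summed 7SL level differed by -0.26 to -0.09 and the share of Gm26191 in the pair by -0.42 to -0.00050 percentage points. The Rmrp to Rpph1 difference ran from -0.20 to 0.04 and was reversed, to 0.0417, without Nipbl+/- replicate 1, and the share of all 4 RNAs differed by -2.19 (without WT replicate 3) to -0.63 (without WT replicate 2) percentage points. The number of genes past the threshold, 177 in edgeR, was 432 with its exact test, 442 with the likelihood ratio test, 449 with DESeq2, 325 with no filter, 30 with limma under either pseudocount, and from 3 (without Nipbl+/- replicate 1) to 268 (without WT replicate 2) with 1 culture left out. The cause was not tested, save that fewer cultures enter when 1 is left out. In the main fit the replicate numbers were not used as pairs, and deviations of same-numbered cultures correlated across genes at -0.06, -0.04 and -0.14. With the replicate block 86 genes passed, and Rmrp had -0.27 (adjusted p = 0.150, edgeR) and Gm26191 -0.15 (adjusted p = 0.311, edgeR). In that fit Gm24105 had -0.13 (adjusted p = 0.277, edgeR) and Rpph1 -0.18 (adjusted p = 0.3315, edgeR), with no change of call. In the 5 gene lists 0 genes passed under any alternative. The biological coefficient of variation was 9.37% for Gm26191, 9.21% for Gm24105, 8.71% for Rmrp and 12.7% for Rpph1.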
